A study of Mus musculus with 6 samples.

Results

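The mRNAs of the protein parts of the spliceosomal snRNPs and of the SF3 complex were followed in hematopoietic stem and progenitor cells (HSPCs) with and without ING4. The genes were taken by symbol, as every protein-coding gene whose name begins with Snrp, with Sf3a or Sf3b and a digit, with Lsm and a digit or with Prpf and a digit, and 47 of the 49315 genes in the count table met this rule. Counts came from bulk RNA-seq of 6 libraries, in which LT-HSCs, ST-HSCs and MPPs were each sorted from bone marrow of WT C57BL/6 mice or of ING4-/- mice, with 1 library for each population and genotype. Marrow of several mice was pooled before each sort, the ING4-/- mice are a line deficient in ING4 in all cells, the WT mice were young adults, and the ages of the ING4-/- mice behind these libraries and the sex of the animals are not given in the sources used here. Long-term (LT-HSCs) and short-term (ST-HSCs) stem cells differ in how long they sustain a transplanted recipient, and MPPs, the multipotent progenitors, come next in the hierarchy. Where a sentence gives 3 values for a genotype, they are those of its LT-HSC, ST-HSC and MPP library, in this order.

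The spliceosome removes introns from pre-mRNA and is built anew on each intron from small nuclear ribonucleoproteins (snRNPs), particles of 1 small nuclear RNA and its proteins. The U1, U2, U4 and U5 snRNPs share a ring of Sm proteins (Snrpb, Snrpd1, Snrpd2, Snrpd3, Snrpe, Snrpf and Snrpg), while U6 carries a related ring of LSm proteins. SF3a and SF3b are U2 snRNP subcomplexes that hold the branch point of the intron, and the Prpf proteins include the catalytic centre protein Prpf8, proteins of the U4/U6.U5 tri-snRNP and the ubiquitin ligase Prpf19. ING4 is a chromatin reader of the HBO1 acetyltransferase complex. In blood-forming cells splicing factors are best known through SF3B1, which is recurrently mutated in myelodysplastic syndromes.

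Total counts were 7839326 to 9363442 in WT and 35596876 to 39192588 in ING4-/- libraries, so genotype and depth cannot be told apart. WT libraries also held counts spread over genes that blood cells do not use: 1915 olfactory and vomeronasal receptor genes had 18.3 to 22.9 counts per kb of exon in WT and at most 0.08 in ING4-/-. Ing4 itself had 162 to 247 counts in WT and 0 to 76 in ING4-/-. Among markers of the sorted cells, Kit and Ly6a were counted in every library, and 2 of 10 such markers were higher in ING4-/- (summed CPM 1539 to 2735 in WT and 2382 to 4230 in ING4-/-). Summed CPM of erythroid markers was 18.4 to 23.4 in WT and 82.9 to 157 in ING4-/- (4 of 7 genes higher, 1 lower, Alas2 at 0 in every ING4-/- library), and that of granulocyte and monocyte markers 358 to 542 and 945 to 1080 (2 of 7 tested higher). Of 8 B cell markers 6 were lower and 1 higher, with Cd79a, Ms4a1, Igll1, Ebf1 and Pax5 among those at 0 in every ING4-/- library (summed CPM 107 to 135 in WT and 66.6 to 125 in ING4-/-). Of 7 tested T and NK cell markers 4 were lower, with Cd3e, Cd3g and Ncr1, as well as the untested Cd8a, at 0 in every ING4-/- library (84 to 164 and 61.5 to 308), and of 6 megakaryocyte markers 1 was higher (269 to 412 and 278 to 1152). With counts at the receptor-gene density subtracted, 3 of 5 tested B cell markers were lower, 1 of 4 T and NK cell markers and 0 of 5 erythroid markers. Counts of such markers in WT can thus be background, and a lower call does not show a loss of cells. The part of these differences in the results was not tested, and in bulk samples a change in cell make-up and a change in RNA per cell cannot be told apart.

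In the main fit 7 of 8 Sm core mRNAs, 7 of 8 LSm ring mRNAs and those of the small subunits Sf3b5 and Sf3b6 were called higher in ING4-/- HSPCs. No tri-snRNP or other Prpf mRNA was called higher there. Upper-quartile scaling called Prpf31, Prpf18 and Prpf38a higher, and removing the length trend 1 other Prpf gene. In edgeR's quasi-likelihood test of the 3 ING4-/- against the 3 WT libraries, in which the populations stand in for replicates, 20 of the 47 genes were called higher at an adjusted p (Benjamini-Hochberg) under 0.05 and a fold change over 2. Prpf39 was the 1 gene called lower, and 26 had no call, among them Snrpa, Snrpc, Lsm8, Sf3a3 and Sf3b3, which passed the p threshold with a smaller fold. Of all 31001 genes tested, 7.98% were called higher and 56.7% lower. Of the 17566 lower calls only 632 were among the 9673 genes that had 10 or more counts in each library (well counted genes), where calls in the same fit made up 24.3% (higher) and 6.53% (lower). The median log2 fold change of the 47 genes was 0.98, against 0.52 for the well counted genes. Relative to that median the genes stood at 0.46, with 30 above and 17 below, and at 0.37 with the trend of counts with gene length removed (34 above and 13 below).

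The count of higher calls moved with the setting. Percentages of all genes, here and below, include many genes with low counts, whereas 45 of the 47 genes were well counted. In the main fit 24.3% of well counted genes were called higher, and that share was not taken under other scalings. Relative to the median of well counted genes, the 47 genes stood at 0.46 with upper-quartile scaling and 0.45 with DESeq2 size factors. With upper-quartile scaling 31 of 47 were called higher and 0 lower (14.7% and 55.1% of all genes), and with DESeq2 size factors 14 and 2 (4.33% and 58.3%). Fitting protein-coding genes alone gave 14 and 1 (6.17% and 40.1%), and population as a block 19 and 0 (6.45% and 54.4%). When well counted genes alone were fitted, 10 of 45 were called higher and 1 lower (8.30% and 9.68%). With the length trend removed in these genes it was 3 of 45, namely Snrpg, Sf3b3 and Sf3b5, and 1 lower (3.80% and 4.83%). Snrpg and Sf3b5 were called higher in each of 20 settings, Lsm7 and Sf3b6 in 19, and Snrpe and Lsm5 in 18. With population as a block the adjusted p of the 19 genes called higher ran from 0.0119 (Snrpg) to 0.0369 in edgeR. In the main fit that of Snrpg was 6.6e-04 (edgeR).

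**Figure D1:**
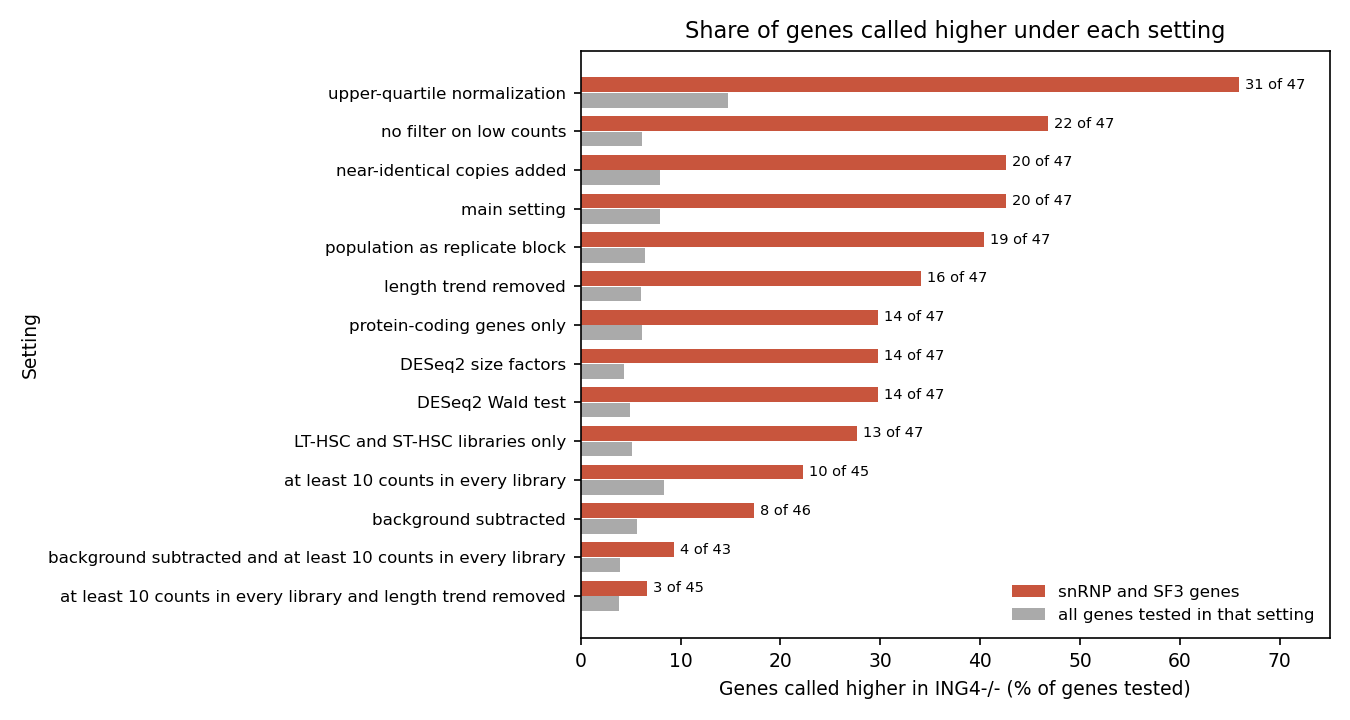
Percent of genes called higher in ING4-/- under the main setting and 13 alternatives, for the 47 snRNP and SF3 genes (red bars, with counts) and for all genes tested in the same setting (grey bars). The red bar ran from 31 of 47 genes under upper-quartile scaling to 3 of 45 with a count minimum and the length trend removed. Grey bars include genes with low counts where the setting keeps them, and among well counted genes 24.3% were called higher in the main fit.

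The Sm core was higher in ING4-/- in nearly every gene. Of its 8 genes, 7 were called higher, with a median log2 fold change of 1.69 (1.17 relative to the genes above), and in all 7 each ING4-/- library was above each WT library. Over all 47 genes, 27 had every ING4-/- library above every WT library and 2 had every one below, where 12.0% and 62.9% of all genes tested, and 35.9% and 13.1% of well counted genes, did so.

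Snrpg (chr6:86371304-86379328, plus strand, GRCm38) had the highest fold change of the 47 genes. This SmG ring protein stood at 91.3, 78.7 and 70.3 CPM in WT (counts scaled to library size by TMM) and at 349, 465 and 339 CPM in ING4-/-. The lowest ING4-/- library was thus well above the highest WT library, and the log2 fold change was 2.26 ± 0.214 (SE, adjusted p = 6.6e-04, edgeR), a 4.8-fold difference. Part of its transcript has a copy in the annotated gene Gm8186, with 100% identity over 231 bases. That copy held 20.2% as many counts as Snrpg in ING4-/-, and adding them to Snrpg changed no call.

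Snrpb, which encodes the SmB ring proteins, had the highest level per kb of exon of the 47 genes in WT libraries, at 142 ± 25.6 CPM per kb (SD, n = 3), and stood at 385 ± 51.9 in ING4-/-. Its CPM was 221, 309 and 308 in WT and 646, 792 and 844 in ING4-/-. The genotypes did not overlap, with a log2 fold change of 1.44 ± 0.199 (adjusted p = 6.8e-04, edgeR). Snrpd1, another ring protein, stood at 54.2, 80.4 and 59.8 CPM in WT and at 120, 277 and 278 in ING4-/-, with a log2 fold change of 1.79 ± 0.371 (adjusted p = 0.00355, edgeR). The ING4-/- LT-HSC library was the low one in Snrpd1, and in Snrpe and Snrpf as well, whose log2 fold changes were 1.85 and 1.83. Snrpd2 and Snrpd3 completed the ring at 1.59 and 1.34. The exons of Snrpf share 85.4% of their bases with genes on the opposite strand, and whether counting used strand is not given in the sources used here, so its value is uncertain.

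Snrpn, the SmN paralog of Snrpb that is used mainly in neurons, was the Sm gene without a call. It had 111, 63 and 97 counts in WT and 129, 529 and 0 in ING4-/-, and 50.8% of its WT counts equalled what the receptor-gene density would place on an exon set of its length. Its log2 fold change was -0.42 ± 1.67 (adjusted p = 0.843, edgeR), and it also shares 27.3% of its exonic bases with genes on the same strand.

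**Figure D2:**
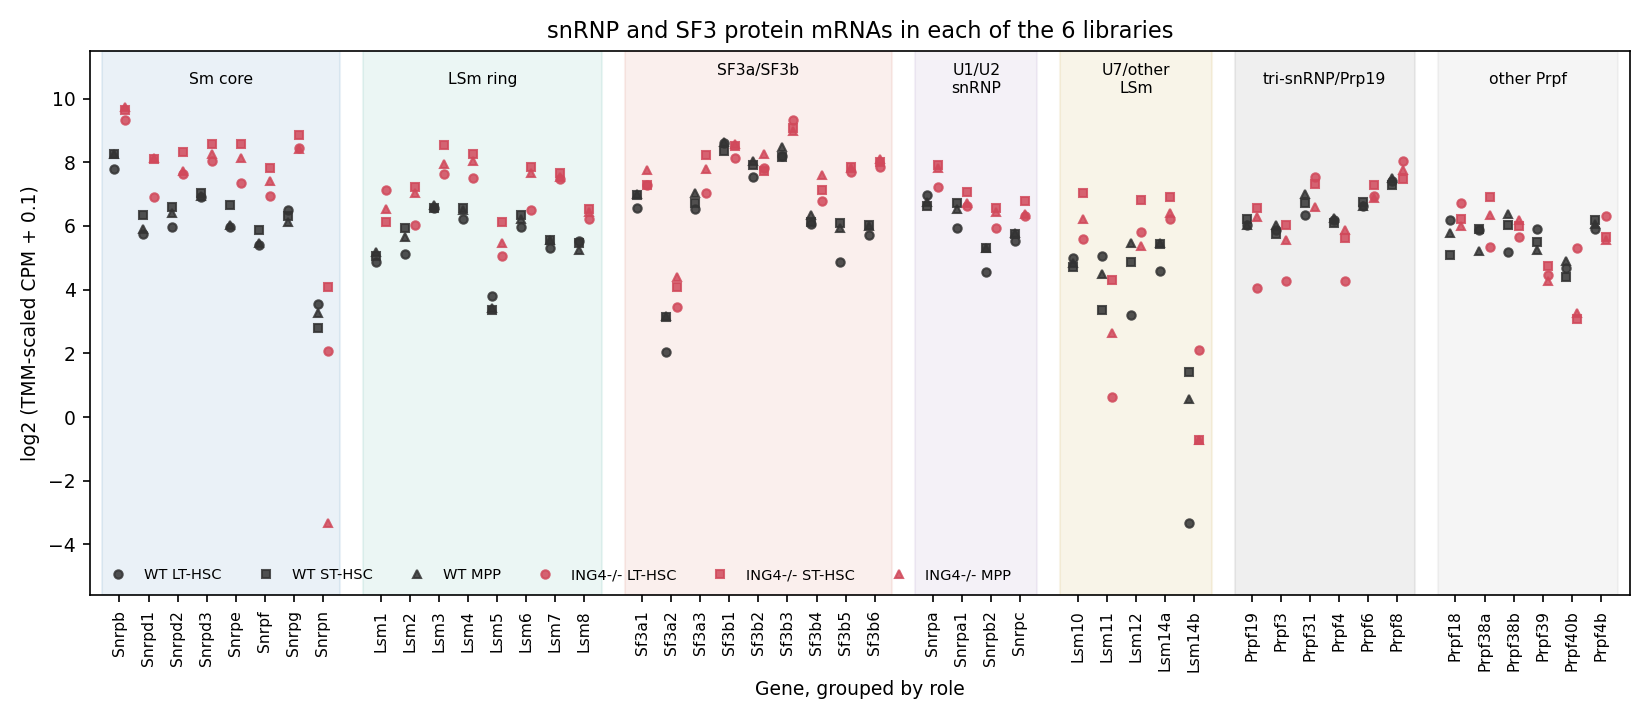
TMM-scaled CPM of 46 of the 47 genes in each of the 6 libraries (log2 of CPM + 0.1, vertical axis), with genes grouped by role along the horizontal axis, WT in black, ING4-/- in red, and a symbol for each population. In the Sm and LSm rings the red points sat above the black ones for 15 of 16 genes, and in the tri-snRNP and other Prpf groups they mixed for 9 of 12.

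All 8 LSm ring genes, which encode Lsm1 of the cytoplasmic decay ring and Lsm2 to Lsm8 of the U6 ring, had every ING4-/- library above every WT library. Of these, 7 were called higher and the median log2 fold change was 1.52. Lsm7 (chr10:80852825-80855209, minus strand) varied little within a genotype. It stood at 39.2, 47.5 and 47.3 CPM in WT and at 179, 203 and 185 CPM in ING4-/-. No WT library came near the ING4-/- range, and the log2 fold change was 2.08 ± 0.204 (adjusted p = 6.6e-04, edgeR). Lsm5 was more scattered among the ING4-/- libraries, at 13.9, 10.1 and 10.7 CPM in WT and 33.3, 69.9 and 44 in ING4-/-, with a log2 fold change of 2.08 ± 0.441 (adjusted p = 0.00397, edgeR). Annotated copies that are at least 95% identical over at least 200 bases held 7.23% of the Lsm5 counts (Gm7846) and 6.1% of the Lsm7 counts (Gm10146) in ING4-/-.

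Lsm1, which belongs to the ring that joins mRNA decapping in the cytoplasm and not to U6, stood at 29.2, 32.9 and 36.5 CPM in WT and at 139, 70.1 and 91.5 in ING4-/-. Here the LT-HSC library was the high one, unlike in the Sm genes (log2 fold change 1.61 ± 0.33, adjusted p = 0.0034, edgeR). Lsm4, Lsm3, Lsm6 and Lsm2 were called higher at 1.54, 1.49, 1.26 and 1.23. Lsm8, the subunit that sets the U6 ring apart from the decay ring, was the member without a call, at 45.9, 43.7 and 38.1 CPM in WT and 74.7, 92.1 and 86.4 in ING4-/-. Its libraries did not overlap either, and its log2 fold change of 0.99 ± 0.248 (adjusted p = 0.00913, edgeR) fell just short of the fold threshold.

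Outside the spliceosomal rings, 2 of 5 genes with LSm domains were called higher, Lsm10 and Lsm14a. Lsm10, a subunit of the U7 snRNP that processes histone mRNA ends, stood at 31.5, 26.3 and 28.3 CPM in WT and 48.5, 132 and 74.9 in ING4-/- (log2 fold change 1.57 ± 0.413, adjusted p = 0.0114, edgeR). Its partner in that particle, Lsm11, had 317, 94 and 229 counts in WT and 45, 616 and 207 in ING4-/-, and the genotypes overlapped. Lsm11 had the lowest fold change of the 47 genes, -1.29 ± 0.966 (adjusted p = 0.284, edgeR), and 64.3% of its WT counts equalled the receptor-gene density over its exons. Lsm14a, an mRNP protein of cytoplasmic P-bodies, had a log2 fold change of 1.32 ± 0.353 (adjusted p = 0.0125, edgeR).

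**Figure D3:**
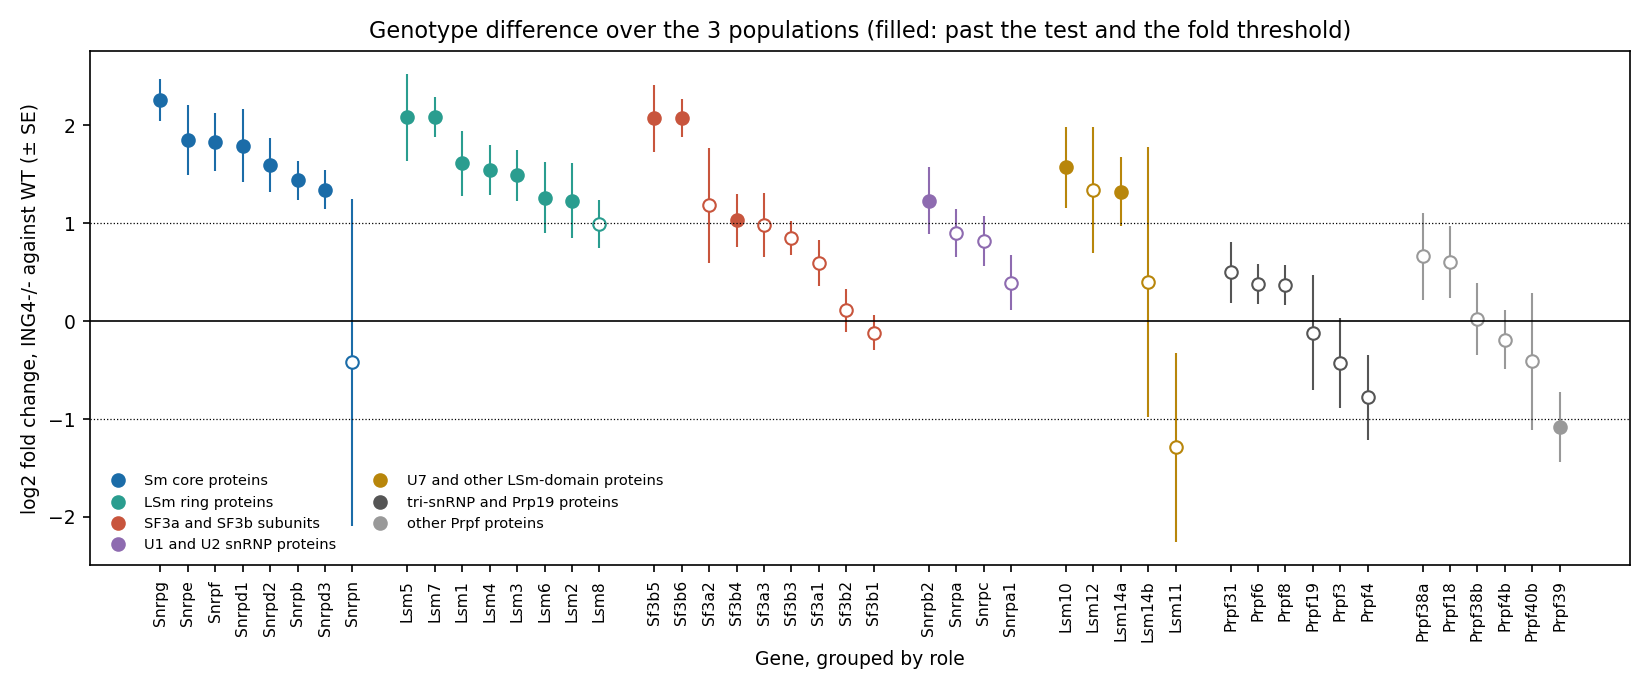
Log2 fold change of ING4-/- against WT over the 3 populations (vertical axis, bars are SE from edgeR) for 46 of the 47 genes, grouped by role and ordered within it, with filled points for called genes and dotted lines at 1 and -1. Filled points mark 7 of 8 genes in the Sm and in the LSm group, and the tri-snRNP and Prp19 group has none.

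Within SF3, the small subunits Sf3b5 and Sf3b6 had the highest fold changes in the main fit. Of 9 genes, 3 were called higher, Sf3b5, Sf3b6 and Sf3b4, at log2 fold changes of 2.07, 2.07 and 1.03. With population as a block Sf3b4 was at 0.99, below the fold threshold. Sf3b6, the p14 protein that sits at the branch point adenosine, stood at 52.7, 65.7 and 63.6 CPM in WT and at 233, 256 and 275 in ING4-/-. The gap between genotypes was wide beside the spread within them (log2 fold change 2.07 ± 0.195, adjusted p = 6.6e-04, edgeR). Sf3b5, a small SF3b subunit, stood at 29.3, 68.4 and 60.6 CPM in WT and at 209, 229 and 225 in ING4-/-, with the WT LT-HSC library low (adjusted p = 0.0012, edgeR).

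Sf3b1, the scaffold that clasps the branch helix, stood at 386, 328 and 400 CPM in WT and at 283, 362 and 380 in ING4-/-. The genotypes overlapped and the log2 fold change was -0.12 ± 0.18 (adjusted p = 0.589, edgeR). Its sign changed with the setting: it was 0.47 with upper-quartile scaling, and with the length trend removed it was 1.01 and called higher. In the fit of well counted genes it was -0.63 (adjusted p = 0.0315, edgeR), and with background subtracted -0.84 (adjusted p = 0.00338, edgeR). Neither of these passed the fold threshold. Sf3b3, another scaffold subunit, stood at 292, 286 and 355 CPM in WT and 646, 534 and 503 in ING4-/-, without overlap (log2 fold change 0.85 ± 0.174, adjusted p = 0.00336, edgeR). With the length trend removed Sf3b3 was at 1.91 (adjusted p = 5.5e-04, edgeR) and called higher, beside 1.94 for Sf3b5 and 1.26 for Sf3b6. Sf3b4 was then at 0.51 without a call. In the main fit Sf3b2 was at 0.11 ± 0.222, and the SF3a genes Sf3a1, Sf3a2 and Sf3a3 at 0.59, 1.18 and 0.98 had no call. Across the 9 SF3 genes the log2 fold change was inversely related to exonic length (Pearson r = -0.61, Spearman rho = -0.72, n = 9 genes of the same libraries, a description).

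Of the 4 proteins particular to U1 or U2, Snrpb2, an RNA-binding protein of U2, was called higher. It stood at 23.5, 39.7 and 39.6 CPM in WT and 61.1, 93.9 and 87 in ING4-/- (log2 fold change 1.23 ± 0.339, adjusted p = 0.014, edgeR). Its partner in U2, Snrpa1, stood at 60.8, 106 and 92 CPM in WT and 98.2, 135 and 106 in ING4-/-, and the genotypes overlapped (0.39 ± 0.28, adjusted p = 0.262, edgeR). The Snrpa1 value was -0.12 in the fit of well counted genes alone. The U1 proteins Snrpa and Snrpc had log2 fold changes of 0.90 and 0.82, both without overlap of the genotypes.

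None of the 6 tri-snRNP and Prp19 genes was called in either direction in the main fit, with a median log2 fold change of 0.12 (-0.40 relative to well counted genes). Prpf8, the protein around the catalytic RNA, stood at 170, 157 and 181 CPM in WT and 261, 178 and 216 in ING4-/- (log2 fold change 0.37 ± 0.203, adjusted p = 0.155, edgeR). Prpf31, a U4/U6 assembly protein mutated in retinitis pigmentosa, stood at 80.6, 105 and 128 CPM in WT and 186, 161 and 96.8 in ING4-/- (0.50 ± 0.311, adjusted p = 0.2, edgeR). In both genes the genotypes overlapped, and both values were below 0 after background subtraction (-0.30 and -0.13). With upper-quartile scaling Prpf8 was at 0.96 (adjusted p = 0.00384, edgeR), and Prpf31, at 1.10 (adjusted p = 0.0169, edgeR), was called higher. With the length trend removed Prpf8 was at 0.93 (adjusted p = 0.00381, edgeR). Prpf4, a U4/U6 protein, stood at 73.5, 67.9 and 75.4 CPM in WT and 19.2, 48.9 and 58.6 in ING4-/-, so every ING4-/- library was lower. Its log2 fold change of -0.78 ± 0.433 had an adjusted p of 0.158 (edgeR) and stayed below 0 in all 20 settings, 3 of which called it lower.

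The other 7 Prpf genes had a median log2 fold change of 0.02. Prpf39, a U1-associated factor of alternative splicing, stood at 59.6, 45.4 and 37.7 CPM in WT and at 21.8, 26.7 and 19.1 in ING4-/-. All ING4-/- libraries were lower, and its log2 fold change was -1.08 ± 0.359 (adjusted p = 0.0314, edgeR). The call was lost with population as a block (-1.07, adjusted p = 0.096 in edgeR), with upper-quartile scaling (-0.48), without the filter on low counts, with LT-HSCs and ST-HSCs alone, and without WT LT-HSCs, WT ST-HSCs or ING4-/- MPPs. Prpf38a, of the tri-snRNP-associated PRP38 family, was at 0.66 ± 0.443 (adjusted p = 0.235, edgeR), and Prpf18, Prpf38b, Prpf40b and Prpf4b lay between -0.41 and 0.60 without a call.

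Rings and tri-snRNP were also compared inside each library, where scaling between libraries does not enter. This comparison was not planned, and its groups already differed in fold change in the same libraries. Snrpn, which it leaves out, had a negative fold change. It is thus a description and no separate support. There the median log2 count of 15 Sm and LSm ring genes (without Snrpn) minus that of the 6 tri-snRNP and Prp19 genes was -0.31, -0.14 and -0.41 in WT. In ING4-/- it was 1.76, 1.19 and 1.29. The means were -0.29 ± 0.14 and 1.41 ± 0.30 (SD, n = 3), with no overlap. The 47 genes together took 0.448 ± 0.0156% of counts in WT and 0.655 ± 0.0747% in ING4-/- (SD, n = 3).

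Ring genes and tri-snRNP genes differ in length, and fold changes in these libraries moved with length. Median exonic length was 1773 bases in the Sm core, 2923 in the LSm ring and 5666 in the tri-snRNP and Prp19 genes. Across the 47 genes, log2 fold change and log length (log10 bases) had a Pearson r of -0.67 and a Spearman rho of -0.72, and across the well counted genes an r of -0.42 and a rho of -0.51. These are descriptions over genes that share the same 6 libraries. All 10 of the snRNP and SF3 genes under 2000 bases were called higher, beside 49.8% of well counted genes below 1000 bases and 51.2% of those from 1000 to 2000. From 2000 to 4000 bases 8 of 17 were called higher, beside 31% of those genes, and from 4000 to 8000 bases 2 of 17, beside 12.6%. Median log2 fold changes of the 47 genes were 1.83, 1.85, 1.18, 0.37 and 0.16 from the shortest class to the longest, and those of well counted genes 1.36, 1.23, 0.83, 0.29 and -0.59.

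With the length trend taken out of every library, 16 of 47 genes were called higher and 1 lower (6.04% and 56.2% of all genes). The Sm core then had a median of 1.04, the LSm ring 1.15 and the tri-snRNP and Prp19 genes 0.34. Relative to the median of well counted genes in that fit they stood at 0.53, 0.64 and -0.17, against 1.17, 0.99 and -0.40 before. The r over the 47 genes was -0.15 in that fit. In another fit the counts that the receptor-gene density would place on each gene's exons were subtracted, which takes the background to be even over all exons. Lsm14b did not meet this, with 0, 24 and 14 counts in WT where 65.4, 66.3 and 52.8 would have been placed. With that subtraction 8 of 46 genes were called higher, Snrpe, Snrpf, Snrpg, Lsm1, Lsm5, Lsm7, Sf3b5 and Sf3b6, and 2 lower, Prpf4 and Prpf39 (5.64% and 38.6% of all genes).

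**Figure D4:**
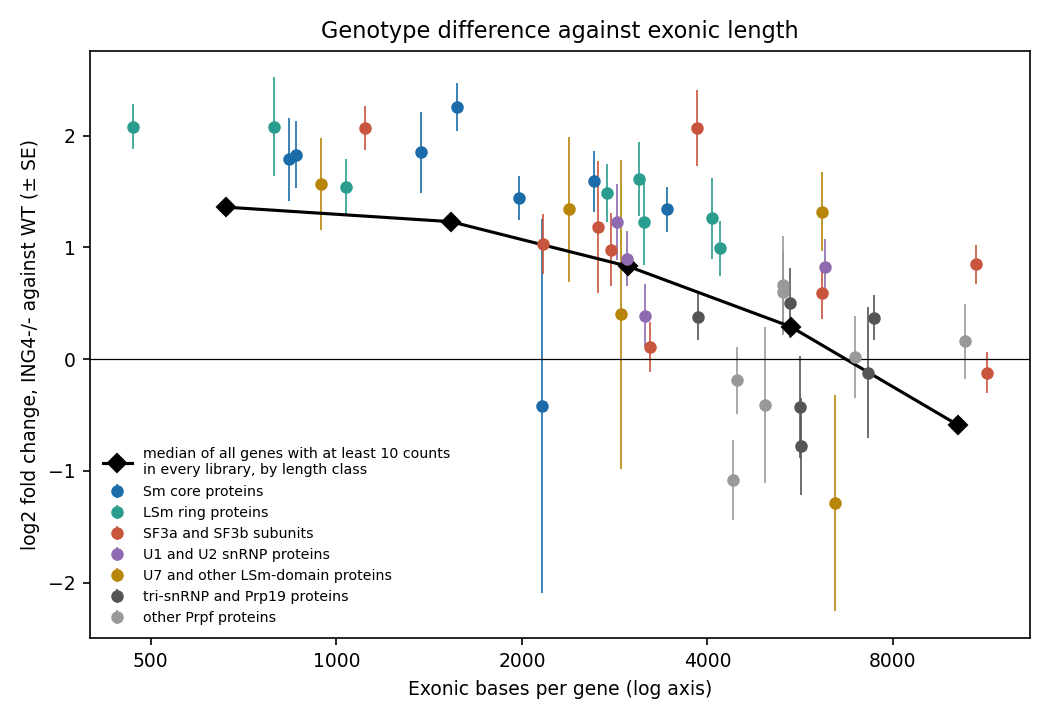
Log2 fold change of ING4-/- against WT (vertical axis, bars are SE) against exonic bases (log axis) for the 47 genes, coloured by role, with black diamonds for the median of well counted genes in 5 length classes. The diamonds fall from 1.36 in the shortest class to -0.59 in the longest, and the genes under 2000 bases lie above 1.

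Within single populations, where each genotype had 1 library and no test was possible, the median log2 ratio of the 47 genes was 0.77, 1.09 and 0.93 for LT-HSCs, ST-HSCs and MPPs. The ratio was above 0 in 39, 39 and 34 genes, and 31 genes were higher in ING4-/- in all 3 populations and 2, Prpf4 and Prpf39, lower in all 3. Sm core medians were 1.45, 1.76 and 1.70, and LSm ring medians 1.17, 1.60 and 1.40. The tri-snRNP and Prp19 genes had medians on both sides of 0, at -0.64, 0.31 and -0.057, as had the other Prpf genes (0.46, -0.48 and -0.20) and the U7 and other LSm-domain genes (1.62, 1.47 and -0.11). In LT-HSCs Prpf19, Prpf4 and Prpf3 had log2 ratios of -2.00, -1.93 and -1.60, where Prpf31 had 1.20.

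**Figure D5:**
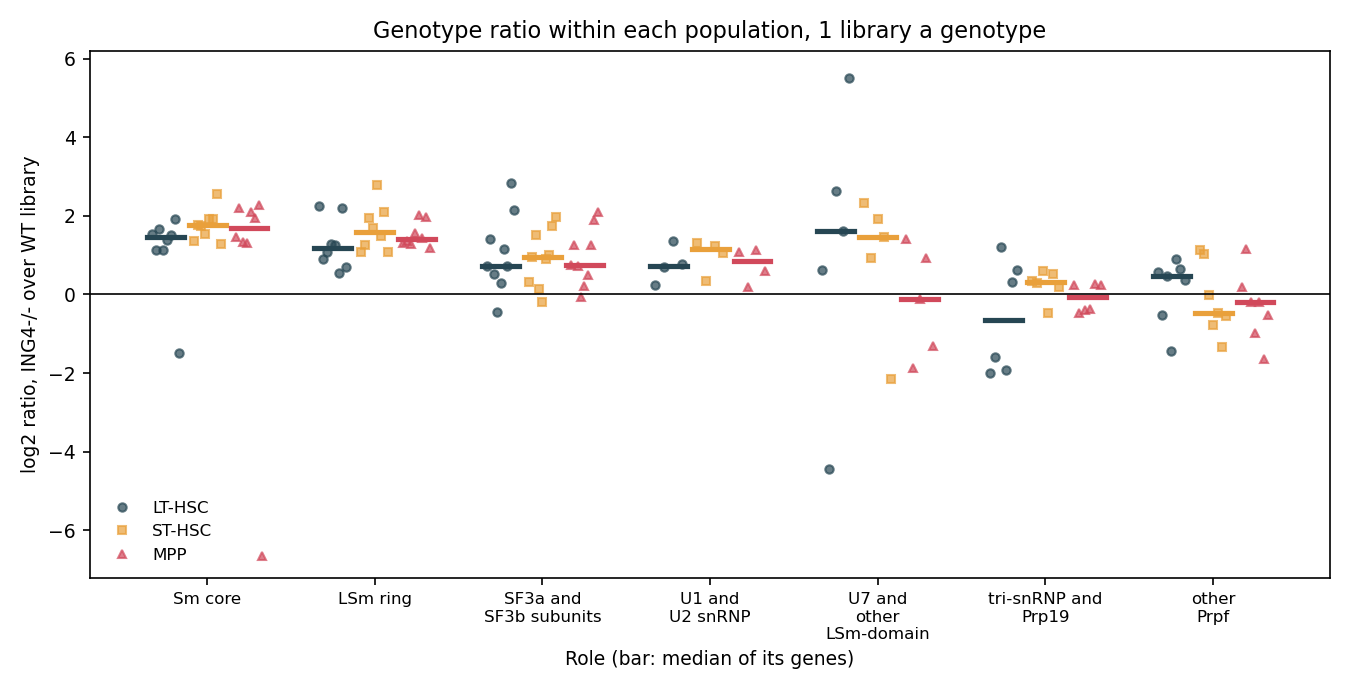
Log2 ratio of the ING4-/- over the WT library (vertical axis) for each of the 47 genes and 3 populations, grouped by role, with bars at the median of each group. Sm and LSm medians lay between 1.17 and 1.76 in the 3 populations, and tri-snRNP and Prp19 medians between -0.64 and 0.31.

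Between populations, none of the 47 genes was called in any of the 3 contrasts, in edgeR with genotype as a term and 2 residual degrees of freedom or in DESeq2. Of all genes tested edgeR called 0.00% in each contrast, and DESeq2 called 0.519% for ST-HSCs against LT-HSCs, 0.797% for MPPs against LT-HSCs and 0.00% for MPPs against ST-HSCs. At an unadjusted p under 0.05, edgeR gave 4 genes for ST-HSCs against LT-HSCs (Snrpd1, Snrpd2, Snrpe and Lsm2, at log2 differences of 0.86, 0.65, 0.92 and 1.00), 1 for MPPs against LT-HSCs (Snrpb, 0.43) and 0 for MPPs against ST-HSCs, where 1.99%, 1.81% and 0.603% of all genes passed. DESeq2 gave 0 of the 47 genes at that threshold in each contrast. Median differences of the 47 genes were 0.39, 0.23 and -0.16, with 38, 32 and 16 genes above 0. Without single libraries these medians ran from 0.21 to 0.45, 0.15 to 0.29 and -0.23 to -0.02.

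Of 74 other spliceosome genes, outside the naming rule, 21 were called higher and 3 lower, beside 24.3% and 6.53% of well counted genes in the same fit (7.98% and 56.7% of all genes), with a median log2 fold change of 0.73 against 0.52. With population as a block it was 15 higher and 2 lower (6.45% and 54.4% of all genes). In the SMN complex and Sm methylosome, which load Sm rings onto snRNA, 6 of 11 were called higher, among them Gemin7 (1.93), one of the 3 highest values of the list, and Strap (1.43). These calls fell to 4 with population as a block, 3 with the length trend removed, 2 with background subtracted and 1 in the fit of well counted genes. Phf5a, the small SF3b subunit whose symbol falls outside the rule, was called higher at 1.82 ± 0.327 (adjusted p = 0.00181, edgeR). Higher calls were 4 of 12 for U5 and U4/U6 proteins (Txnl4a 1.87, Snu13 1.67), 3 of 7 for the minor spliceosome (Snrnp35 1.98, Zmat5 1.96), 3 of 14 for Prp19 complex proteins, 3 of 10 for SR proteins, 2 of 11 for U1 and U2 associated proteins and 0 of 9 for catalytic step helicases. The 3 lower calls were the U1-associated Luc7l, Luc7l2 and Luc7l3, at -1.01, -1.70 and -1.08. With population as a block the calls of Luc7l2 (-1.79, adjusted p = 0.0656 in edgeR) and Snrnp35 (2.20, adjusted p = 0.0893 in edgeR) were lost. Those of Plrg1, Smn1, Gemin2, Srsf7 and Srsf9 were lost there as well. With the length trend removed all 3 Luc7l calls were lost (adjusted p = 0.224, 0.406 and 0.14, edgeR), as were those of Snrnp35, Zmat5 and Phf5a. With upper-quartile scaling 42 were called higher and 0 lower (14.7% and 55.1% of all genes). In the fit of well counted genes, 6 of 72 were called higher and 4 lower, beside 8.30% and 9.68% of the genes in that fit, and with the length trend removed as well 0 were higher and 2 lower (3.80% and 4.83%).

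Promoter sequences from RefSeq (GRCm38.p6), 250 bases before to 50 bases after a transcript start, were at hand for 38 of the 47 genes in 48 windows. Of 9 motifs searched on both strands, each counted once in a window whether or not it overlapped another, the ETS core CCGGAAG was in 16 of 48 windows (33.3%) and in 8.86% of all 32851 windows, and the NRF1 core GCANGCGC in 16 of 48 and in 9.61%. The TATA box TATAAA was in 6.25% of the 48 windows and in 13.6% of all, and the GC box GGGCGG in 54.2% and 35.7%. The E-box CACGTG was in 12.5% and 7.15%, the YY1 motif AAGATGGC in 8.33% and 2.75%, CCAAT in 41.7% and 37.4%, the CRE TGACGTCA in 6.25% and 1.79%, and the palindrome CTCGCGAG in 2.08% and 0.919%. The ETS core was in 5 of 16 windows of genes called higher and in 11 of 32 windows of the others. The same counts were 7 and 9 for the NRF1 core, 12 and 14 for the GC box, 7 and 13 for CCAAT, 0 and 6 for the E-box, 0 and 3 for the TATA box, 2 and 2 for YY1, 2 and 1 for the CRE and 1 and 0 for the palindrome, with no test made. A match describes letters and is not a binding site. Not every gene with a high fold change is shown: Snrpg, with the ETS core, and Lsm7, with the NRF1 core but no ETS core, are left out. Stretches before the start are shown for Sf3b6 and Lsm5, among the genes with the highest fold changes, and for Prpf4, Prpf39 and Lsm11, those with the lowest, leaving out annotated exons. They lie at chr12:4817358-4817607 (plus strand), chr6:56704711-56704949 (minus), chr4:62408643-62408782 (plus), chr12:65036084-65036332 (plus) and chr11:45944936-45945185 (minus), each read 5′ to 3′ along its gene, with matches to the ETS core or the NRF1 core on either strand in capitals.
Sf3b6: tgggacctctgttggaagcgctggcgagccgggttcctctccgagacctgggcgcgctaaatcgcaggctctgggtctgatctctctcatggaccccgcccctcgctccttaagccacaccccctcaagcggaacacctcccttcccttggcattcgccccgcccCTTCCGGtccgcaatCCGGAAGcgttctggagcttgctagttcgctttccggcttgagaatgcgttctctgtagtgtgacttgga
Lsm5: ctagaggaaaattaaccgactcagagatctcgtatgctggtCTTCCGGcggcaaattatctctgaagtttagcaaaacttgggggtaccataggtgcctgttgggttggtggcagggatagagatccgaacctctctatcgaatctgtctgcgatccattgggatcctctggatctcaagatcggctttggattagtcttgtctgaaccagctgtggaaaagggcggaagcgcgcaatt
Prpf4: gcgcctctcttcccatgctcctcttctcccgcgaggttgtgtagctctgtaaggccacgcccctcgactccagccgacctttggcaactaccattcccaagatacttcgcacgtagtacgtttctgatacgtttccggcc
Prpf39: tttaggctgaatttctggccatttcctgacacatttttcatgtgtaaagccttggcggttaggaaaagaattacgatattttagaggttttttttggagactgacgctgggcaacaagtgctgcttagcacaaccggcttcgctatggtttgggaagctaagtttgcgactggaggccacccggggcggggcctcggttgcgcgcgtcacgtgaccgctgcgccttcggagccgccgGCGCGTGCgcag
Lsm11: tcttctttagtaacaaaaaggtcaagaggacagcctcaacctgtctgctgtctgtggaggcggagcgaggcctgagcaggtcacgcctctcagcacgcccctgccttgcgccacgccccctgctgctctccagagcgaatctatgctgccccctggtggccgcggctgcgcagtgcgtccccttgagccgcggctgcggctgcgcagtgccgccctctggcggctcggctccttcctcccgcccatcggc
The Sf3b6 stretch held 2 ETS cores, 1 on each strand, and Lsm5 held 1. Prpf39 held 1 NRF1 core close to its start, and the Prpf4 and Lsm11 stretches held neither.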

How the data were processed

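For each of 6 libraries, made from LT-HSCs, ST-HSCs or MPPs sorted out of pooled marrow, the authors deposited unnormalized read counts on 49315 genes. Library construction, sequencing and first processing were done by a company, and the labels name the build mm10. The aligner, counting program, strand setting and treatment of reads with several positions are not given in the sources used here. Symbols came from GENCODE M21 (49056 identifiers found, 40 of the 47 genes with the same start and end there).

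Counts were fitted in edgeR 4.0.16 (R 4.3.3) with TMM, filterByExpr and the quasi-likelihood test on genotype, calling genes at an adjusted p under 0.05 (Benjamini-Hochberg) and an absolute log2 fold change over 1. SE was derived from the F statistic and the log2 fold change. Population contrasts had genotype as a term. Populations stand in for replicates, so p-values measure the spread between these libraries. WT and ING4-/- libraries of 1 population shared deviations from their genotype's mean (r = 0.143, 0.11 and 0.121 over 9673 genes), so populations pair the libraries. The main fit leaves this pairing out, and the fit with population as a block uses it. No library was a duplicate of another. The limit that a count of 0 allows, 3 counts, was 0.0765 to 0.383 CPM by library and covers counting error only. Alternatives were other scalings and filters, DESeq2 1.42.0, protein-coding genes alone, population as a block, LT-HSCs and ST-HSCs alone, each library left out, the length trend removed and receptor-gene background subtracted. Adding near-identical copies (BLAST 2.17.0) and background subtraction with a count minimum were chosen after seeing the data. The comparison of rings and tri-snRNP inside libraries was not among the planned results. The fits were tested on simulated counts. The genes and lists were chosen with earlier results of these data known. Values are given by rule for the highest and lowest fold change of each role, the 3 highest and 3 lowest of the 47, Sf3b1, Prpf8, Snrpb, Snrpd1, Snrpn and the 3 highest and 3 lowest calls among other spliceosome genes, and other genes were named after their values were seen. The values of 1 of the 47 genes are not reported here by name.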

Additional observations from a re-analysis of the deposited data

Results flagged for a closer look

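In 2 genes the ING4-/- library stood over 2-fold above WT in 1 population and over 2-fold below it in another, and since each genotype had 1 library in a population the difference was not tested. The log2 ratio of Snrpn was 1.29 in ST-HSCs and -6.66 in MPPs, where the WT library had 97 counts and the ING4-/- library 0. At the receptor-gene density 39.5 of those 97 counts would be background, and the ratio depends on the prior count, so no fold is given. The log2 ratio of Lsm14b, a P-body protein, was 5.50 in the LT-HSC libraries and -2.16 in ST-HSCs. Its counts by population, in the order used above, were 0, 24 and 14 in WT and 132, 16 and 17 in ING4-/-, so that it was at least 13.3-fold higher in ING4-/- LT-HSCs against a floor of 3 counts in the WT library. At the receptor-gene density its exons would have held 65.4 counts in the WT LT-HSC library, where 0 were counted.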

How the results depend on the processing

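Of 338 values of 18 named genes under the alternatives, 276 kept their direction and side of the threshold, 37 lost the call, 10 gained one and 15 changed sign, and the cause was not tested. Genes called higher, 20 in the main fit, were 13 with LT-HSCs and ST-HSCs alone, 10 with at least 10 counts in every library, 3 with the length trend removed as well, 8 with background subtracted, 4 with both background subtracted and the count minimum, 31 with upper-quartile scaling and 16 to 24 without single libraries. Genes called lower, 1 in the main fit, were 2 in DESeq2, with its size factors and after background subtraction, 0 with upper-quartile scaling, with no filter on low counts, with LT-HSCs and ST-HSCs alone and with population as a block, and 0 to 2 without single libraries. The replicate block gave 19 higher calls among the 47 genes, and 15 higher and 2 lower calls among other spliceosome genes. The median log2 fold change, 0.98, was 0.61 in DESeq2 and with its size factors, 0.76 with LT-HSCs and ST-HSCs alone, 0.48 with the count minimum, 0.42 when the length trend was taken out too, 0.38 with background subtracted, 0.36 with the minimum added, 0.64 for protein-coding genes and 1.58 with upper-quartile scaling. With DESeq2 size factors the medians within LT-HSCs, ST-HSCs and MPPs were 0.40, 0.62 and 0.68. Other spliceosome genes called higher, 21 in the main fit, were 10 in DESeq2, 9 with its size factors, 6 with the count minimum, 0 when the length trend was taken out too, 5 with background subtracted, 1 with the minimum added, 11 with the length trend removed, 9 for protein-coding genes, 42 with upper-quartile scaling and 12 to 28 without single libraries, lowest without WT ST-HSCs. Those called lower, 3 in the main fit, were 6 in DESeq2, 5 with its size factors, 1 with the length trend removed, 1 with no filter, 0 with upper-quartile scaling and 1 to 4 without single libraries. Signs changed for Prpf31 (-0.13 with background subtracted, -0.21 with the minimum added), Prpf8 (-0.14 with the count minimum, -0.30 with background subtracted, -0.39 with both), Sf3b1 (0.50 with the minimum and no length trend, 1.01 with the length trend removed, 0.47 with upper-quartile scaling, -0.25 to 0.024 without single libraries, the latter without ING4-/- LT-HSCs), Snrpa1 (-0.12 with the count minimum, -0.40 when the length trend was taken out too, -0.32 with background subtracted, -0.41 with both) and Snrpn (0.20 with upper-quartile scaling, -2.15 to 0.19 without single libraries, the latter without ING4-/- MPPs). A count of 0 in a WT library allows a CPM of up to 0.383, and the receptor-gene density would place 8.55 to 261 counts on each of the 47 genes in WT libraries.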
